A study of Ovis aries with 54 samples.

Results

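The genes described here encode nuclear subunits of the oxidative phosphorylation machinery, measured by RNA sequencing in sheep (Ovis aries) lung. They were chosen by symbol: NDUFA, NDUFB, NDUFC, NDUFS and NDUFV genes (without NDUFAF assembly factors), UQCR and CYC1 genes, COX4 to COX8 genes, ATP5 genes and SDHA to SDHD. The rule took 62 of 30184 genes in the count table: 39 by complex I symbols, 4 of complex II, 1 of complex III (UQCRH), 1 of complex IV (COX5A) and 17 of ATP synthase. NDUFA4, counted here by its complex I symbol, is now known as a part of complex IV. Other subunits of complexes III and IV are not analysed here. The rule reads symbols and no measured value of these samples, but it was chosen with earlier results of these data known.

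The study is a model of chronic obstructive pulmonary disease in which lobes of sheep lung were exposed to porcine elastase, an enzyme that digests elastin, and lipopolysaccharide (LPS), a component of bacterial outer membranes. Tissue pieces fell into 3 groups: 7 exposed to PE/LPS, 7 exposed to saline in the same 7 sheep, and 4 from 4 control sheep. Each piece was sequenced as 3 libraries, whose counts were summed, and every test was made over pieces. All PE/LPS pieces carried the code LC in their titles and all saline pieces the code RA, so treatment and code cannot be told apart within the exposed sheep; the control pieces were 2 LC (sheep 10 and 18) and 2 RA (sheep 7 and 9). Titles of 4 pieces had further characters after the code (PE/LPS pieces of sheep 2, 8 and 11 and the control piece of sheep 9), and these are called longer-titled. What the codes and the further characters stand for, and the animals' ages and dose times, were not given in the sources used here.

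Oxidative phosphorylation makes most of the ATP of resting cells. Complex I takes electrons from NADH and complex II takes them from succinate. Complex III passes them to cytochrome c, complex IV hands them to oxygen, and ATP synthase uses the proton gradient built on the way. Most subunits are encoded in the nucleus and a small core in the mitochondrial genome. In lung, alveolar type 2 cells and ciliated cells are rich in mitochondria. In bulk tissue, fewer cells of a type and less RNA per cell cannot be told apart.

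Piece totals were 9653262 to 41946705 counts, of which 87605 to 517401 fell on the 62 genes. Library totals were 2777537 to 16215732, apart from 115109 in the first library of sheep 11's PE/LPS piece. The defining lung markers were present throughout, none at 0 in any piece, with SFTPC, surfactant protein C, at 2764 to 114148 CPM. CPM is the count scaled to the total of the piece after TMM adjustment of that total. The summed lung markers were 4626 to 23476 CPM in the longer-titled PE/LPS pieces and 28349 to 129211 CPM in the other PE/LPS pieces. Summed striated muscle markers stayed between 1.41 and 11.1 CPM.

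The level of the 62 genes as a set differed more between pieces than between groups. Their mean log2 CPM was 6.86 ± 0.54 (SD, n = 7) in PE/LPS, 6.71 ± 0.56 (n = 7) in saline and 7.14 ± 0.41 (n = 4) in control pieces. In the PE/LPS pieces of sheep 1, 2, 8, 11, 14, 15 and 16 it was 7.45, 7.34, 6.21, 6.92, 7.07, 7.03 and 6.02. In the saline pieces of the same sheep it was 6.82, 7.02, 7.13, 6.30, 5.73, 6.58 and 7.38, and in the control pieces of sheep 7, 9, 10 and 18 it was 6.99, 7.70, 7.12 and 6.75. The 3 groups overlapped, and the sheep that was low in one treatment was not the one that was low in the other: sheep 16 was lowest among PE/LPS and highest among saline pieces. The saline piece of sheep 14 held the lowest value of 39 of the 62 genes. The control piece of sheep 9 held the highest value of 25 genes and the PE/LPS piece of sheep 2 that of 15.

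These differences between pieces were seen in each library. Among libraries of the same piece the SD of the genes' mean log2 CPM was 0.0319, against 0.50 between pieces, over 53 libraries (that of 115109 counts left out). Taken gene by gene, pieces varied more than libraries for 59 of 62 genes. Together the genes took 0.687% of all counts in the saline piece of sheep 14 and 2.45% in the PE/LPS piece of sheep 2. Genes of protein synthesis were lowest and highest in 2 of the same pieces: the mean log2 CPM of 73 cytosolic ribosomal protein genes was 7.53 in the saline piece of sheep 14 and 9.67 in the control piece of sheep 9, at the ends of its range too. That of 37 mitochondrial ribosome genes was 4.68 and 6.27 in the same 2 pieces, again the ends of the range. The share of counts on the mitochondrial genome did not have its ends there: it was 0.885% in the saline piece of sheep 14 and 0.768% in the control piece of sheep 9, within a range of 0.632% to 1.68%. The part of RNA quality or cell makeup in these levels was not tested.

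**Figure D1:**
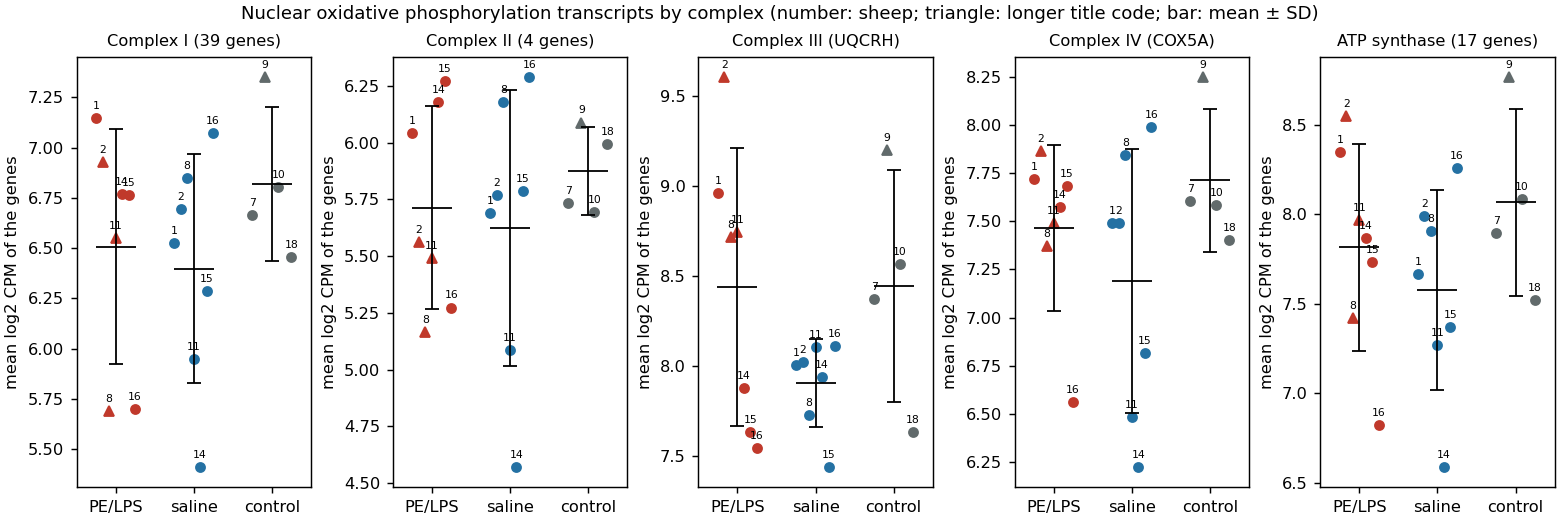
Mean log2 CPM of the genes of each complex in every piece (symbols; numbers give the sheep, triangles the longer-titled pieces), with the mean and SD of each group as black bars. The groups overlap in every panel; the saline piece of sheep 14 is lowest for complexes I, II and IV and for ATP synthase, and the control piece of sheep 9 is highest for complexes I and IV and for ATP synthase.

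By complex, the group means stood in the same order (control, PE/LPS, saline), with differences within the spread of the pieces. Genes with complex I symbols, NDUFA4 among them, averaged 6.51 ± 0.58 log2 CPM in PE/LPS, 6.40 ± 0.57 in saline and 6.82 ± 0.38 in control pieces (SD, n = 7, 7 and 4). ATP synthase genes averaged 7.81 ± 0.58, 7.58 ± 0.56 and 8.07 ± 0.52 in the same order. Complex II genes averaged 5.71 ± 0.45, 5.62 ± 0.61 and 5.88 ± 0.19. UQCRH, the hinge subunit of complex III that contacts cytochrome c1, averaged 8.44 ± 0.77 in PE/LPS and 8.44 ± 0.64 in control pieces, and 7.90 ± 0.24 in saline. COX5A, a nuclear subunit of complex IV, averaged 7.47 ± 0.43, 7.19 ± 0.69 and 7.71 ± 0.37.

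Within each complex the measured levels covered a wide range. CPM is not divided by transcript length, so these values describe depth of measurement and not the order of the transcripts. Over the 18 pieces, complex I genes averaged 0.617 CPM for NDUFAB1, the mitochondrial acyl carrier protein, to 536 CPM for NDUFA2, an accessory subunit. Complex II genes averaged 4.23 CPM for SDHD to 199 CPM for SDHC, both membrane anchors. ATP synthase genes averaged 2.82 CPM for ATP5MC2, a c ring gene, to 1209 CPM for ATP5F1E, the epsilon subunit. The lowest count of a gene in a piece was 2, for NDUFAB1, so differences of that gene were barely resolved. ATP5MC1, ATP5MC2 and ATP5MC3 encode the same mature c subunit, and the counting of reads shared by near-identical copies was not given in the sources used here; the split among such genes is uncertain.

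The genes also differed in how much they varied. NDUFS1, the largest core subunit of complex I, was the steadiest: it ranged over 1.62-fold across the 18 pieces, with an SD of 0.22 log2 CPM. Its median was 25.8 CPM (18.3 to 29.1) in PE/LPS and 20.1 CPM (17.9 to 24.3) in saline pieces, and the 4 control pieces held 28.6, 20.8, 24.9 and 21.4 CPM. ATP5MF, the f subunit in the membrane part of ATP synthase, varied most, over 28.1-fold with an SD of 1.23. It stood at 182 CPM in the saline piece of sheep 14 and 5115 CPM in the PE/LPS piece of sheep 2. By part of the machinery, the median SD over pieces was 0.57 for the 7 core subunits of complex I and 0.81 for its 11 NDUFB subunits. It was 0.53 for the 5 genes of the F1 head of ATP synthase and 1.01 for the 4 of its membrane part.

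**Figure D2:**
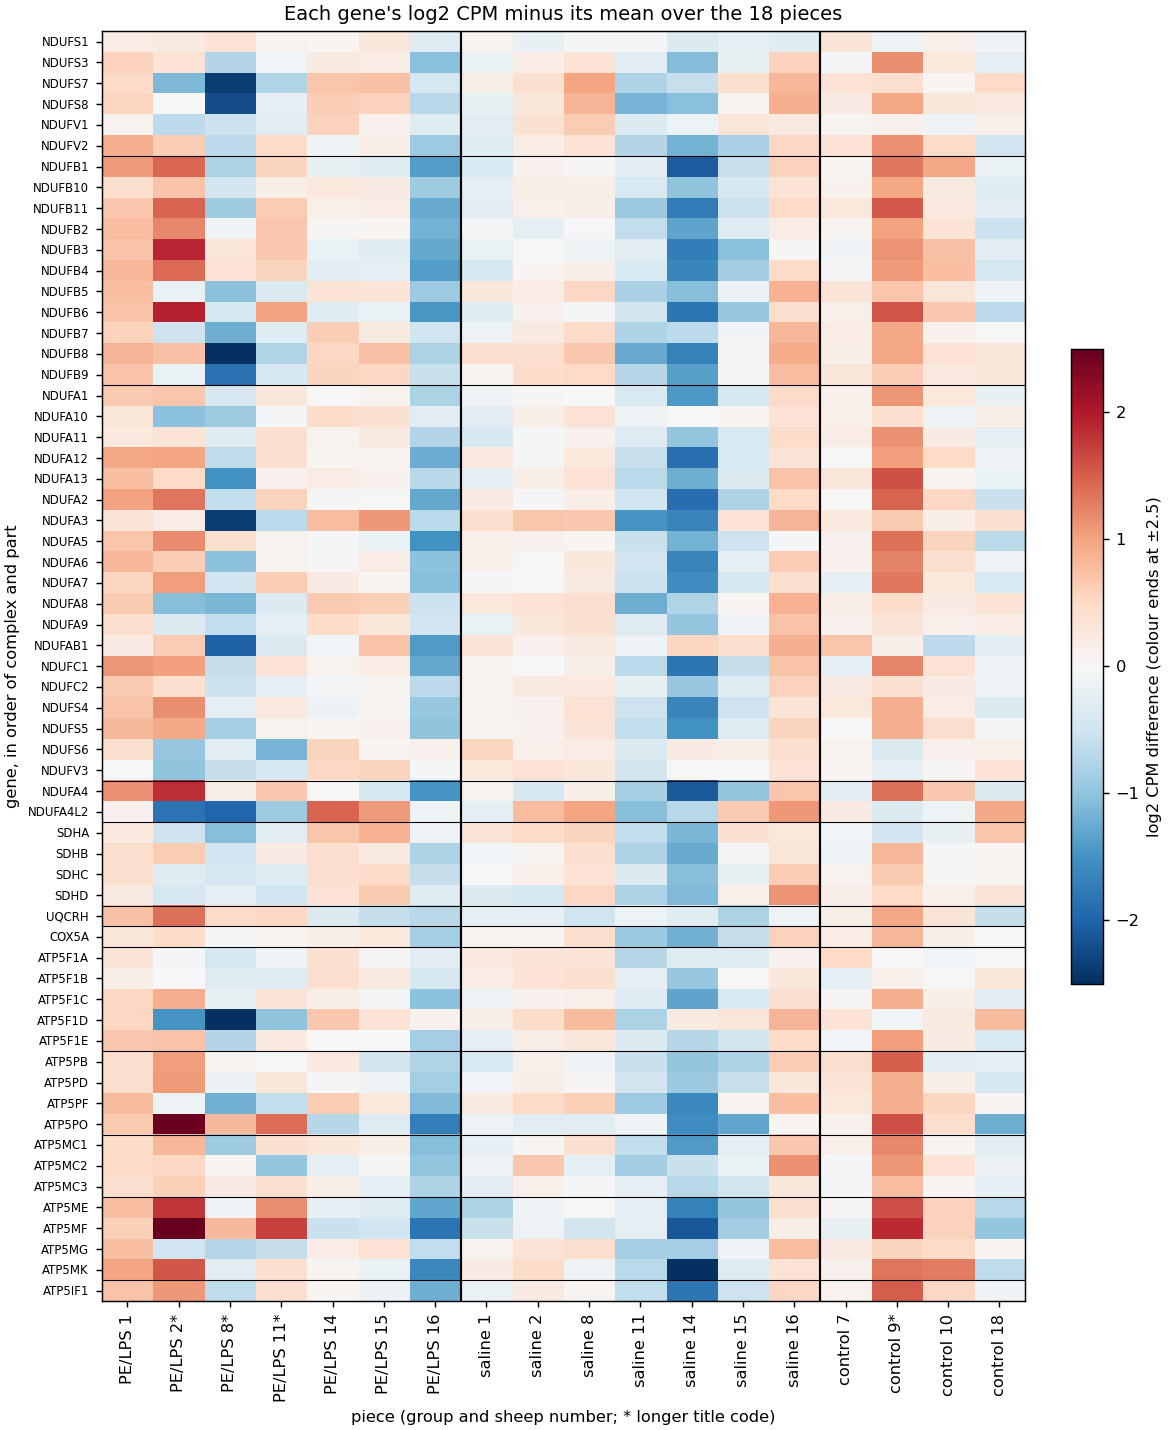
Each gene's log2 CPM minus its own mean over the 18 pieces (rows are 61 of the 62 genes in order of complex and part, columns are pieces, * marks longer-titled pieces; red is above and blue below the gene's mean). Most rows are blue in the saline piece of sheep 14 and in the PE/LPS piece of sheep 16, and red in the control piece of sheep 9; the row of NDUFS1 is pale throughout.

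The PE/LPS pieces were first set against the saline pieces of their own sheep. No gene of the set passed the test, and the direction of the set differed between sheep. In sheep 1, 11, 14 and 15, 56, 56, 60 and 60 of the 62 genes were higher in the PE/LPS piece, and in sheep 2, 40 were. In sheep 8 only 10 were higher, and in sheep 16 none was. The median within-sheep difference of the genes was 0.65 in sheep 1, 0.46 in sheep 2, -0.79 in sheep 8, 0.64 in sheep 11, 1.40 in sheep 14, 0.44 in sheep 15 and -1.41 in sheep 16, in log2 CPM. The difference of their mean averaged 0.15 ± 0.95 (SD, n = 7 sheep), with 5 of 7 above 0. Mean ribosomal protein log2 CPM was likewise higher in PE/LPS in 5 of 7 sheep, by 0.29 ± 0.84 on average.

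**Figure D3:**
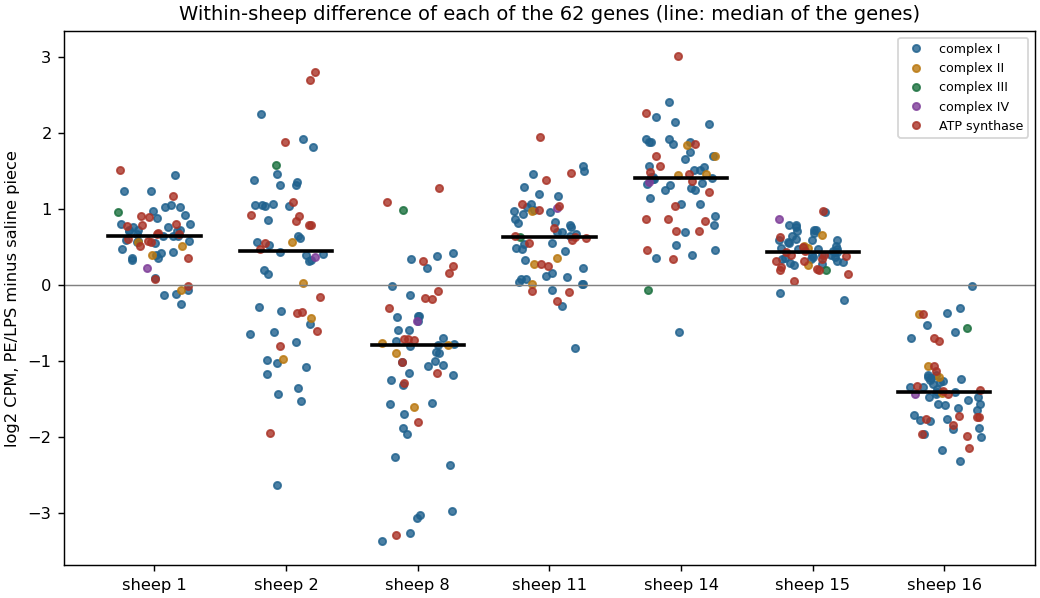
PE/LPS minus saline difference in log2 CPM of each of the 62 genes (points, coloured by complex) within each sheep, with the median of the genes as a black line. The medians are above 0 in 5 sheep and at -0.79 and -1.41 in sheep 8 and 16.

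With edgeR's quasi-likelihood test, sheep as a block and Benjamini-Hochberg adjustment over 16944 genes, 0 genes passed an adjusted p of 0.05 (0% of all genes), and the smallest adjusted p among the 62 was 0.771. DESeq2 called 47 genes (0.277% of all genes), none of the 62, and limma voom called 0. At an unadjusted p under 0.05, 2 of the 62 were higher and 0 lower, where 2.51% of all genes were higher and 3.25% lower (5.76% in all). The median log2 fold change of the 62 was 0.27, with 40 above 0, and that of all genes tested was -0.03. No gene of the set moved in the same direction in all 7 sheep, where 0.785% of all genes were higher in each and 0.891% lower. All 8 ciliated cell markers were below 0 in this comparison, with a median of -0.66, and 3 had an unadjusted p under 0.05. Of the 8 alveolar type 2 markers 7 were below 0, with a median of -0.60, 2 at an unadjusted p under 0.05 and 2 lower in all 7 sheep. The part of cell makeup in the values of the 62 genes was not tested. Leaving out sheep 16 gave a median of 0.49, where that of all genes was -0.06, and still 0 called. In that fit 53 of the 62 were above 0 and 26 had an unadjusted edgeR p under 0.05. The smallest adjusted p among the 62 was 0.177, and the share of all genes at the unadjusted threshold was not counted. Without the sheep of the longer-titled pieces the median was 0.31, with 59 above 0 and 0 called. Leaving out sheep 14 gave a median of 0.05, with 33 above 0. The median standard error of the 62 fold changes was 0.37, and the median half-width of their 95% intervals, taken with normal quantiles, was 0.72.

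Both genes with an unadjusted p under 0.05 were higher in 6 of 7 sheep. NDUFB3, an accessory subunit of the membrane arm of complex I, had a median of 153 CPM (50.8 to 465) in PE/LPS and 111 CPM (37.4 to 126) in saline pieces. The groups overlapped, and the highest value was that of sheep 2. Its log2 fold change was 0.78 (SE 0.34), with an edgeR p of 0.0425 and an adjusted p of 0.771. ATP5MF had a median of 1211 CPM (223 to 5115) in PE/LPS and 577 CPM (182 to 884) in saline pieces. Its log2 fold change was 1.13 (SE 0.50, edgeR p = 0.0433, adjusted p = 0.771). In sheep 16 it was lower in the PE/LPS piece, by 1.98 log2 CPM. ATP5PO, the stalk subunit that joins the F1 head to the peripheral stalk, was next, at a log2 fold change of 0.94 (SE 0.45, edgeR p = 0.0594). It too was higher in 6 of 7 sheep and lower in sheep 16.

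The 3 genes with the smallest p among those lower in PE/LPS were NDUFS6, ATP5F1D and NDUFS7. NDUFS6, a zinc-binding accessory subunit of complex I, was lower in 6 of 7 sheep, with a log2 fold change of -0.35 (SE 0.22, edgeR p = 0.128). ATP5F1D, the delta subunit of the central stalk, stood at -0.68 (SE 0.42) but was higher in PE/LPS in 3 of 7 sheep. It was lower by 3.29 log2 CPM in sheep 8 and by 1.94 in sheep 2. NDUFS7, a core iron-sulfur subunit next to the ubiquinone site, stood at -0.53 (SE 0.47) and was higher in 4 of 7 sheep. It was lower by 3.36 log2 CPM in sheep 8. Without the 3 sheep of the longer-titled pieces the fold change of ATP5F1D was 0.03 and that of NDUFS7 was 0.17, so that both changed sign.

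No part of the machinery had a called gene, and differences between parts were not tested. The 11 NDUFB genes had a median log2 fold change of 0.49 and the 7 core subunits of complex I -0.05. The 4 genes of the membrane part of ATP synthase had a median of 0.69 and the 5 of its F1 head 0.05. Among complex II genes, SDHA, the flavoprotein that oxidises succinate, stood at -0.05 (SE 0.35, 95% interval -0.74 to 0.64). SDHB, the iron-sulfur subunit, stood at 0.31 (SE 0.33). UQCRH stood at 0.54 (SE 0.30) and COX5A at 0.31 (SE 0.33, 95% interval -0.34 to 0.95).

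**Figure D4:**
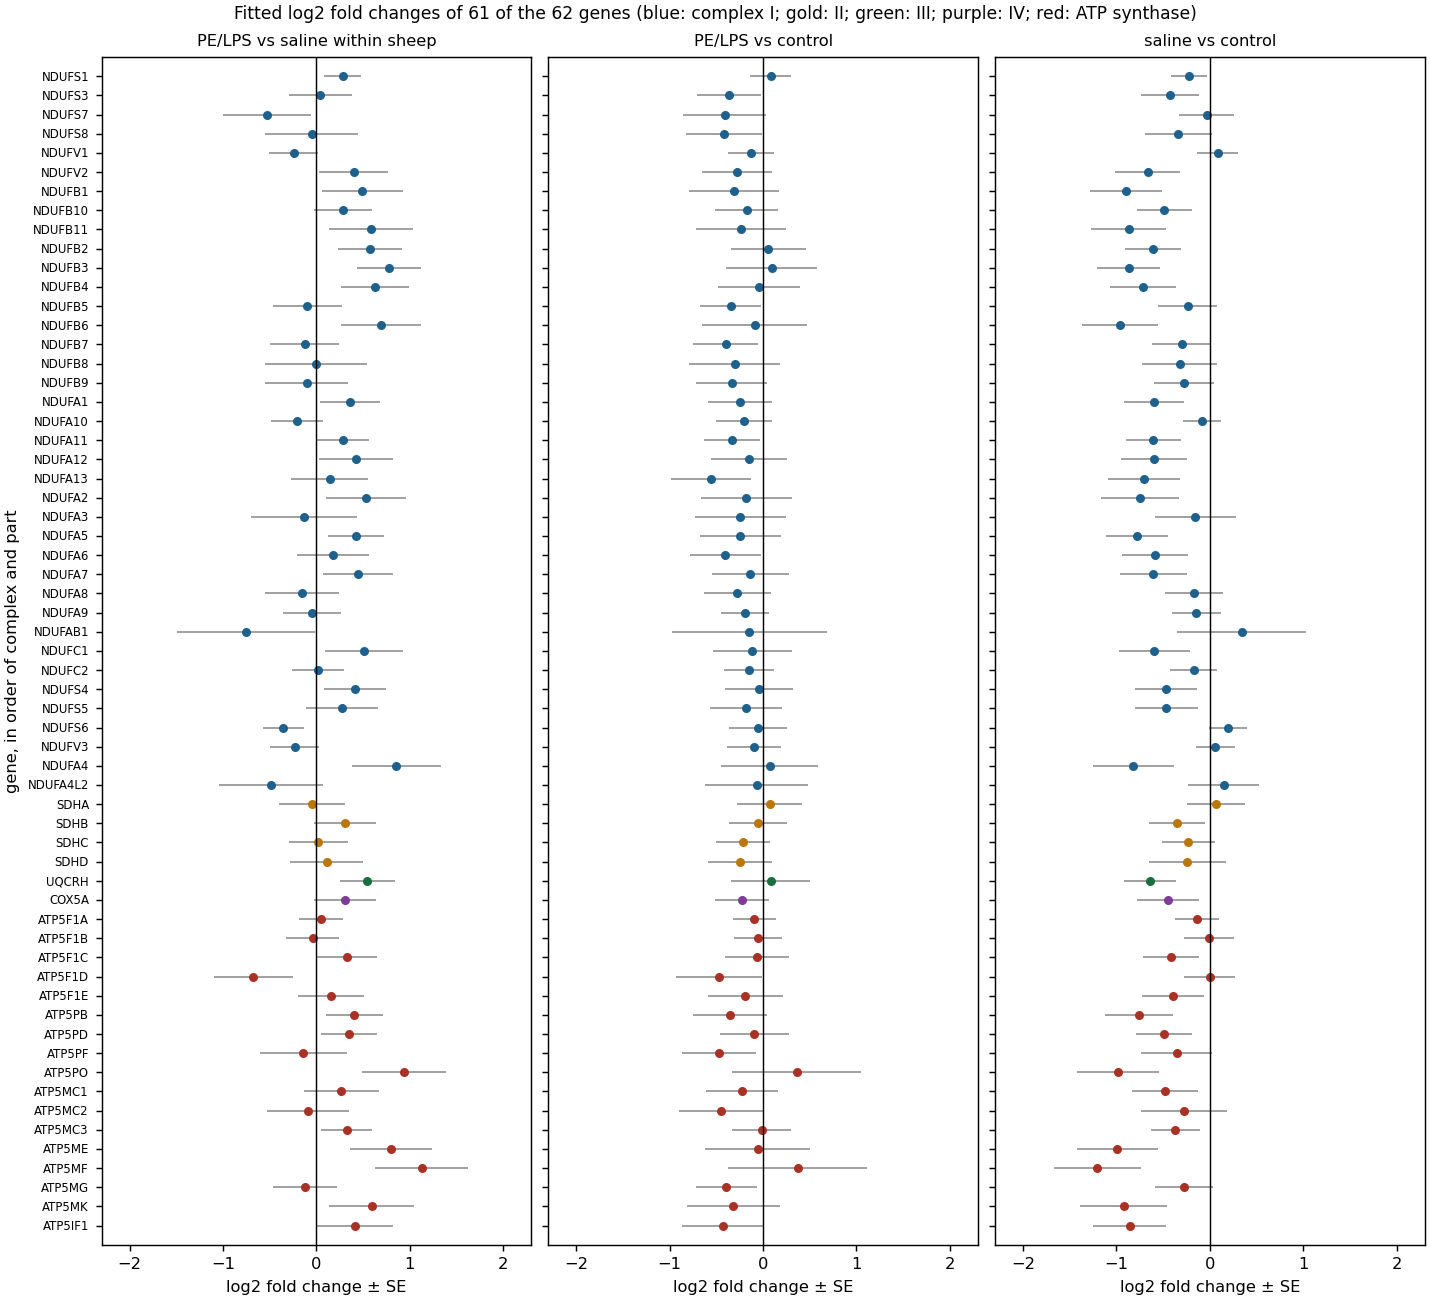
Fitted log2 fold change with its standard error for 61 of the 62 genes in PE/LPS against saline (left), PE/LPS against control (middle) and saline against control (right), in order of complex and part. In the right panel 55 of 61 points lie below 0, and ATP5MF lies lowest at -1.20; no point passed the adjusted threshold.

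The second comparison set PE/LPS pieces against control sheep. Again 0 of 62 genes passed, and 0 of 18340 genes in all (0%, edgeR). No gene of the 62 had an unadjusted p under 0.05, where 0.703% of all genes were higher and 0.573% lower. None separated the groups, where 0.0818% of all genes were higher and 0.0981% lower without overlap. DESeq2 and voom called 0 genes. The median log2 fold change of the 62 was -0.19, with 54 genes (87.1%) below 0, where 47.9% of all genes were below 0. Without the control piece of sheep 9 the median was 0.01 and 31 genes were below 0, and with LC controls alone it was 0.03.

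The 95% intervals of the 3 higher and 3 lower genes with the smallest p all held 0. ATP5MF had 1669 ± 1714 CPM (SD, n = 7) in PE/LPS and 704, 2904, 1190 and 401 CPM in the control pieces of sheep 7, 9, 10 and 18, a log2 fold change of 0.37 (SE 0.75). ATP5PO had 1417 ± 1332 CPM (n = 7) against 813, 2303, 1017 and 325 CPM in the same order (0.36, SE 0.69). Both fold changes were below 0 without sheep 2, at -0.24 for ATP5MF and -0.20 for ATP5PO. NDUFS1 differed by 0.08 (SE 0.22, 95% interval -0.35 to 0.51). NDUFA13, a complex I accessory subunit also known as GRIM19, had the lowest fold change of the 62, -0.56 (SE 0.43). It was 0.12 against LC controls alone. ATP5PF and ATP5MG, of the stalk and the membrane part of ATP synthase, stood at -0.47 (SE 0.40) and -0.39 (SE 0.33).

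The third comparison set saline pieces of the exposed sheep against the same control pieces, so that it shares its controls with the second. No gene passed among 18289 tested (0%, edgeR), while DESeq2 called 6 genes (0.0328%), none of the 62, and voom 0. At an unadjusted p under 0.05, 10 of the 62 genes (16.1%) were lower and 0 higher, where 3.25% of all genes were lower and 1.66% higher (4.91% in all). All 10 had an adjusted p of 0.939. The median log2 fold change of the 62 was -0.42, with 56 genes below 0, where 48.5% of all genes were below 0 with a median of 0.01. Without the control piece of sheep 9 the median was -0.16 and 0 genes had an unadjusted p under 0.05. With RA controls alone (sheep 7 and 9) it was -0.68, with 55 genes below 0 and 20 at an unadjusted edgeR p under 0.05. Without sheep 18 it was -0.56, with 53 below 0 and 22 at that threshold. Both fits still called 0 of the 62, and the shares of all genes at the unadjusted threshold were not counted in these fits. With library totals in place of TMM scaling the median was -0.24 and that of all genes 0.16.

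Of the 10 genes, 5 belong to complex I, 1 to complex III and 4 to ATP synthase. NDUFB3 had a median of 111 CPM (37.4 to 126) in saline pieces and 117, 268, 206 and 101 CPM in the control pieces of sheep 7, 9, 10 and 18. The groups overlapped, and the log2 fold change was -0.87 (SE 0.34, edgeR p = 0.0199). ATP5MF stood at -1.20 (SE 0.47, edgeR p = 0.0202). It averaged 576 ± 226 CPM (SD, n = 7) in saline pieces. NDUFB6, another membrane arm subunit, stood at -0.96 (SE 0.41). The other complex I genes were NDUFB1, NDUFB11 and NDUFA5, at -0.89, -0.87 and -0.78. UQCRH stood at -0.64 (SE 0.28): it was 173 to 276 CPM in saline and 331, 587, 378 and 198 CPM in control pieces, 3 of the 4 above every saline piece. The remaining ATP synthase genes were ATP5ME, a membrane subunit, at -0.99, ATP5PO at -0.98 and ATP5IF1, the inhibitor of ATP hydrolysis, at -0.86.

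None of the 10 separated the groups, where 0.197% of all genes were higher and 0.202% lower without overlap. Among the 73 ribosomal protein genes, 20 were lower at an unadjusted p under 0.05 in this comparison, with a median log2 fold change of -0.59, and among 37 mitochondrial ribosome genes 4 were, with a median of -0.35. All 8 alveolar type 2 markers were above 0, with a median of 0.60 and 4 at an unadjusted p under 0.05, and all 6 smooth muscle markers were below 0, with a median of -0.47. The part of cell makeup in the lower values of the 62 genes was not tested. Cytosolic ribosomal protein genes took 19.6% of counts in the control piece of sheep 9, and 7.51% to 11.4% in the other control pieces. The genes that were higher had small or poorly resolved differences: NDUFS6 stood at 0.19 (SE 0.20), NDUFV1, the NADH-binding core subunit, at 0.09 (SE 0.22), and NDUFAB1 at 0.34 (SE 0.69).

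Because the code is the same split as treatment in the exposed sheep, LC and RA were also compared among the control pieces, 2 against 2. No gene passed among 18063 (0%, edgeR); DESeq2 called 55 (0.304%) and voom 1 (0.00554%), none of the 62. One gene of the set, ATP5PB, had an unadjusted p under 0.05 (1.61%), where 2.06% of all genes were lower and 1.65% higher (3.71% in all). It encodes the b subunit of the peripheral stalk. It stood at 125 and 128 CPM in LC and 204 and 423 CPM in RA pieces, a log2 fold change of -1.33 (SE 0.53, edgeR p = 0.0355, adjusted p = 0.987). Both LC pieces lay below both RA pieces for 14 genes (22.6%) and above them for 1 (1.61%), where the shares of all genes were 15.1% and 17%. The median of the 62 was -0.46, and 48.7% of all genes were below 0. Without sheep 9 it was 0.04, so that the direction rested on that piece.

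NDUFA13 and NDUFB11 followed ATP5PB, at -1.14 (SE 0.62) and -1.06 (SE 0.63). Those higher in LC with the smallest p were SDHA at 0.57 (SE 0.45), NDUFA4L2 at 0.54 (SE 0.46) and ATP5F1D at 0.38 (SE 0.41). All 8 ciliated cell markers were above 0 in LC, with a median of 1.10, and 3 had an unadjusted p under 0.05.

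Whether the within-sheep difference of PE/LPS and saline exceeded the code difference in control sheep was tested with limma voom, with sheep as a random block. No gene passed among 20719 (0%), and the smallest adjusted p was 0.73. At an unadjusted p under 0.05, 2 of the 62 were higher (3.23%) and 0 lower, where 3.26% of all genes were higher and 2.86% lower. These were ATP5PB, at 1.63 (SE 0.62, voom p = 0.015), and ATP5PO, at 2.25 (SE 1.07, voom p = 0.0477). The median of the 62 was 0.72, with 50 above 0, and that of all genes was -0.05. The control difference that enters this value had a median of -0.46, and of 0.04 without the piece of sheep 9.

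The PE/LPS pieces themselves differed by title. The 3 longer-titled pieces were compared with the 4 others, a split read from the titles but known from earlier results of these data to part the pieces. Here 10 of the 62 genes (16.1%) passed an adjusted p of 0.05, where 14.1% of all 17549 genes did, so that the share was near that of all genes. Of the 62, 2 were higher and 8 lower, where 5.16% of all genes were higher and 8.9% lower. At an unadjusted p under 0.05, 19 of the 62 differed, where 29.4% of all genes did (12.3% higher and 17.1% lower). DESeq2 called 14 of the 62 and 19.9% of all genes, and voom 9 and 14.1%. The median log2 fold change of the 62 was 0.12, with 34 above 0 and 28 below. It was -0.25 without sheep 2 and -0.07 without sheep 16. The title classes also differed in depth without overlap. Piece totals were 9653262, 21224140 and 16624822 counts in the longer-titled pieces of sheep 2, 8 and 11, and 22471776 to 37777824 in the others. Among PE/LPS pieces, only those of sheep 2 and 8 hold title numbers above S45. The part of depth or of these numbers in the calls was not tested.

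The 2 higher genes belong to ATP synthase. ATP5MF was at 5115, 1405 and 2619 CPM in the longer-titled pieces of sheep 2, 8 and 11, and at 1211, 541, 572 and 223 CPM in those of sheep 1, 14, 15 and 16. The groups did not overlap, and the log2 fold change was 2.28 (SE 0.57, edgeR adjusted p = 0.0191). ATP5PO was at 4117, 1321 and 1987 CPM against 1194, 463, 606 and 230 CPM, again without overlap (2.01, SE 0.55, edgeR adjusted p = 0.0276). Of all genes, 10.8% were higher and 16.2% lower without overlap between the 2 classes.

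The 8 lower genes were 6 with complex I symbols, 1 of complex II and 1 of ATP synthase. ATP5F1D was at 22.5, 11.1 and 31.5 CPM in the longer-titled pieces and at 90.5, 101, 80.9 and 68.0 CPM in the others, a log2 fold change of -1.95 (SE 0.36, edgeR adjusted p = 0.00563). NDUFA4L2 was at 6.78, 6.21 and 13.3 CPM against 26.7, 67.9, 51.7 and 23 CPM (-2.24, SE 0.44, edgeR adjusted p = 0.00767). Neither gene overlapped between the classes. NDUFA4L2 is a paralogue of NDUFA4, in other mammals a hypoxia-induced gene that lowers complex I activity. NDUFS7 was at 35.8, 14.9 and 45.9 CPM against 109, 125, 128 and 57.8 CPM (-1.69, SE 0.40). The accessory subunits NDUFA8, NDUFS6 and NDUFV3 stood at -1.20, -1.03 and -0.93, and SDHA at -1.03 (SE 0.32). For NDUFA8 the classes overlapped, since the piece of sheep 16 had 58.1 CPM and that of sheep 11 had 66.6 CPM. NDUFB3 was higher at 1.24 (SE 0.46) and missed the threshold (edgeR adjusted p = 0.0901).

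When each of the 7 sheep was left out in turn, ATP5F1D and NDUFA4L2 were called all 7 times. ATP5MF, ATP5PO and NDUFS7 were called 4 times and the other 5 genes 2 times. The count of called genes was 2 without sheep 14 or sheep 15, where the share of all genes called was 6.04% and 6.14%, and 3 without sheep 2, where it was 5.48%. It was 6 without sheep 8 and 14 without sheep 1, where 7.11% and 16.7% of all genes were called.

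The levels of NDUFA4 and its paralogue NDUFA4L2 were also set side by side. NDUFA4 stood at 541, 166 and 240 CPM in the longer-titled PE/LPS pieces and at 333, 152, 114 and 54.1 CPM in the others, which overlap (0.97, SE 0.53, edgeR adjusted p = 0.245). NDUFA4L2 counts amounted to 1.25%, 3.75% and 5.53% of NDUFA4 counts in the pieces of sheep 2, 8 and 11. In those of sheep 1, 14, 15 and 16 they amounted to 8.02%, 44.7%, 45.2% and 42.5%. In saline pieces the share ran from 13% to 51.5%. In control pieces it was 22.8%, 9.49% and 39.8% in sheep 7, 10 and 18, and 4.96% in the longer-titled piece of sheep 9.

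The longer-titled control piece of sheep 9 was in no fit of this comparison. Its total, 23106036 counts, was the lowest of the control pieces. For both higher genes it lay above the other 3 control pieces, with 2904 CPM of ATP5MF and 2303 CPM of ATP5PO. Of the 8 lower genes it lay below all other control pieces for 5: ATP5F1D, NDUFA4L2, NDUFS6, NDUFV3 and SDHA. For NDUFA8 it lay above them. Over all 62 genes it lay above the other control pieces for 51 and below for 6. The matching shares over all genes were not counted, so these counts only describe the set.

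**Figure D5:**
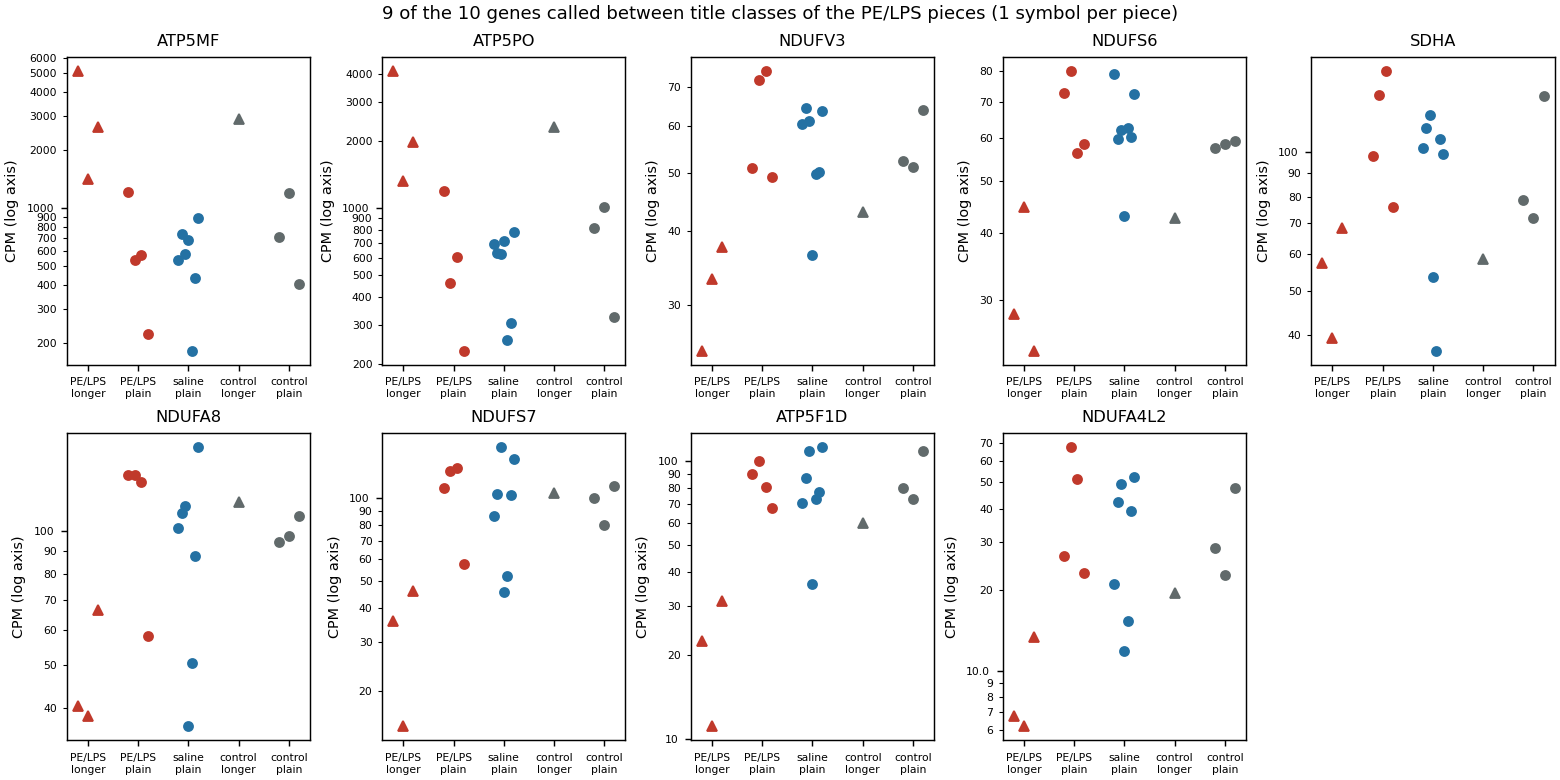
CPM (log axis) of 9 of the 10 genes that passed between title classes, 1 symbol per piece, by group and title class (triangles are longer-titled). For ATP5F1D and NDUFA4L2 the 3 longer-titled PE/LPS pieces lie below the other 4, and for ATP5MF and ATP5PO they lie above; the longer-titled control piece of sheep 9 lies above the other control pieces for ATP5MF and ATP5PO and below them for ATP5F1D and NDUFA4L2.

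Some markers of some cell types differed between the title classes. Summed alveolar type 2 markers were 4026 to 21356 CPM in the longer-titled PE/LPS pieces and 23949 to 118212 CPM in the others, and no listed marker was at 0 in the group. Summed ciliated cell markers were 137 to 236 against 295 to 449 CPM. Of the 8 markers in each of these lists, 1 of the first and 3 of the second were lower at an adjusted p under 0.05, where 8.9% of all genes were lower, and 2 of the first and 1 of the second were above 0. Lower calls were also made for 2 of 6 T cell, 2 of 6 alveolar type 1, 1 of 7 macrophage and 1 of 6 endothelial markers. Higher calls were made for 1 of 5 neutrophil and 1 of 6 fibroblast markers. All 6 smooth muscle markers were below 0, none called. Endothelial markers summed to 1119 to 1283 against 1070 to 1422 CPM. The part of cell makeup in the 10 calls was not tested.

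Related pathways were read in the same fits, from lists chosen with earlier results known. In the 3 comparisons between treatment groups none of their genes passed the adjusted test (edgeR, 0% of all genes). Within sheep, the 11 tested mitochondrial genome subunits had a median log2 fold change of -0.23 in PE/LPS against saline. The 16 genes of the tricarboxylic acid cycle had -0.09, the 15 complex I assembly factors -0.09, and the 14 regulators of mitochondrial biogenesis 0.16. The 18 glycolysis genes had -0.32, with 2 lower at an unadjusted p under 0.05.

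Between title classes of the PE/LPS pieces, 3 of 11 mitochondrial genome subunits were lower: ATP6 at -1.53 (SE 0.44), COX3 at -2.71 (SE 0.69) and ND4 at -1.73 (SE 0.38). Of 16 tricarboxylic acid cycle genes 3 were lower, among them IDH3G, a subunit of isocitrate dehydrogenase, at -2.08 (SE 0.38), and OGDH, of the oxoglutarate dehydrogenase complex, at -1.76 (SE 0.38). Of 18 glycolysis genes 7 were lower and none higher. ALDOC, an aldolase, had 1.94 CPM in the longer-titled and 23.3 CPM in the other pieces (-3.54, SE 0.48, edgeR adjusted p = 0.00152). PFKL, a phosphofructokinase, stood at -1.66 (SE 0.30), and ALDOA, ENO1, GAPDH, GPI and PKM between -1.20 and -1.62. Of 15 complex I assembly factors TMEM126B and NDUFAF4 were higher, at 1.5 and 1.12, and FOXRED1 was lower, at -1.57. Of 15 carrier and shuttle genes SLC25A6, an ADP/ATP carrier, DHODH and GPD2 were lower, at -2.43, -1.81 and -1.05. Of 14 biogenesis regulators POLG, the mitochondrial DNA polymerase, and YY1 were higher, at 1.28 and 0.90. Of 37 mitochondrial ribosome genes 4 were lower and 0 higher, and of 73 cytosolic ribosomal protein genes 5 were higher and 2 lower. These counts are read against the 14.1% of all genes called in this comparison.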

How the data were processed

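The authors deposited 1 table of raw counts per gene, whole numbers with 1 column for each of 54 libraries; 30184 genes were used and 2 rows without values were left out. The submitters' processing notes name edgeR 3.40.2, STAR 2.7.10b, Trimmomatic 0.39, FastQC 0.11.9, Subread 1.6.3 and featureCounts, without giving roles. Per the labels' protocols, priming was on the poly-A tail, with template switching and tagmentation; the genome build, strand setting and treatment of shared reads were not given in the sources used here. Gene names are those of the table, and 25454 IDs (84.3%), all 62 of the set among them, matched a RefSeq table of ARS-UI_Ramb_v3.0, which named the mitochondrial genes.

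Counts of the 3 libraries of a piece were summed (18 pieces). The quasi-likelihood test of edgeR 4.0.16 in R 4.3.3 used TMM scaling, filterByExpr (minimum count 10, total 15), robust fits and Benjamini-Hochberg adjustment over all genes tested at 0.05; all 62 genes passed the filter in each comparison. Standard errors are the fold change divided by the root of F. CPM uses TMM-scaled totals, and log2 CPM a prior count of 2. limma 3.58.1 (voom) tested the difference of differences. DESeq2 1.42.0, voom, other scalings and filters, single libraries and left-out pieces were alternatives. The fits were tested on simulated data.

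The sheep number pairs the PE/LPS and saline pieces, since the series' design text describes both kinds of lobe in the same animals; correlations of their deviations over 10249 genes were -0.42 to 0.49, above 0.1 in 4 of 7 pairs. In PE/LPS against saline the p-values measure the spread of the differences within sheep. In the other edgeR comparisons they measure the spread between pieces. The voom test of the difference of differences uses the spread between pieces with sheep as a random block. Per comparison, the text names the 3 genes with the smallest p in each direction, the lowest and highest gene of each complex and genes of central roles; NDUFB1, NDUFB11, NDUFA5, ATP5ME, NDUFA8, NDUFV3, NDUFS6 and SDHA in lists of calls, and the called genes of related pathways, were named after their values were seen. Values of some called genes are not reported here. The genes, lists and comparisons were chosen with earlier results of these data known.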

Additional observations from a re-analysis of the deposited data

Results flagged for a closer look

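The genes with the smallest p in each direction of each comparison (the top 3), the mean of the set and the means of complexes I and II and ATP synthase were checked for a piece far from the others of its group, 63 checks in all, of which chance alone flags about 5%, or 3.15. There were 2 such values. ATP5F1D stood at 5.18 log2 CPM (36.3 CPM) in the saline piece of sheep 11, below the other 6 saline pieces at 70.7 to 113 CPM. NDUFS6 stood at 5.42 log2 CPM (42.6 CPM) in the control piece of sheep 9, below the other 3 control pieces at 57.7 to 59.3 CPM.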

How the results depend on the processing

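The count of genes of the set called was 0 under each alternative run for the 4 comparisons of treatment and code and for the difference of differences. Without the replicate block, PE/LPS against saline gave 0 called and a median of 0.22. The unpaired edgeR fit of the difference of differences also gave 0 called. Between title classes 10 genes were called. The count was 6 with upper-quartile scaling and 6 with library totals (2 higher and 4 lower each), where 13.1% and 9.8% of all genes were called. It was 0 in library 1 alone, 6 in library 2 alone and 7 in library 3 alone (2.78%, 9.95% and 9.93% of all genes). Library 1 of sheep 11's longer-titled PE/LPS piece is that of 115109 counts. When a sheep was left out the count was 2 to 14. It was 10 without the library of 115109 counts, an alternative chosen after seeing the data, as were all of this comparison except DESeq2 and voom. Library totals moved the median of all genes to -0.13 in PE/LPS against saline, where that of the set was 0.15, and to 0.26 in LC against RA, where that of the set was -0.17 with 42 genes below 0. Of the checks of named genes, 18 changed sign, none of them called, 14 lost and 2 gained a call, and 605 kept direction and call; 8 counts of called genes were lower. PE/LPS against saline without longer-titled sheep gave ATP5F1D 0.030 and NDUFS7 0.17, and NDUFS7 was 0.094 without the sheep whose titles hold numbers above S45 (PE/LPS of sheep 2 and 8, saline of sheep 1). PE/LPS against control without longer-titled pieces gave ATP5PO -0.21, ATP5MF -0.27, NDUFS1 -0.062, NDUFA13 0.094 and ATP5PF 0.022; without numbers above S45, ATP5PO -0.32, ATP5MF -0.33 and NDUFS1 -0.010; and with LC controls alone, NDUFA13 0.12. Leaving out a sheep there gave -0.20 to 1.01 for ATP5PO and -0.24 to 1.16 for ATP5MF. Saline against control gave NDUFV1 -0.093 in library 1 and -0.014 to 0.14 with a sheep left out, and NDUFAB1 -0.10 with RA controls alone. LC against RA gave NDUFA4L2 -0.083 to 0.99 with a sheep left out. Fewer pieces or libraries enter these fits; the cause was otherwise not tested. Depth limits NDUFAB1, with as few as 2 counts in a piece.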
